A study of Homo sapiens with 6 samples.

Results

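Insulin and the insulin-like growth factors act through INSR and IGF1R, receptor tyrosine kinases that phosphorylate adaptors such as IRS1. Phosphorylated adaptors bind PIK3R1, the p85-alpha regulatory subunit that stabilises and restrains PI3-kinase, and the lipid product of PI3-kinase recruits the kinases AKT1 and AKT2. Active AKT phosphorylates the transcription factors FOXO1 and FOXO3 and holds them outside the nucleus, so signalling lowers transcription of FOXO target genes, while in turn FOXO factors can raise receptor and adaptor genes. In epithelial tumour cells this route is known for driving growth and survival. Published targets of miR-223 in other cells include IGF1R and FOXO1, and published targets of miR-29 include PIK3R1.

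The data described here are the signals of these 8 genes, IGF1R, INSR, IRS1, PIK3R1, AKT1, AKT2, FOXO1 and FOXO3, chosen by gene symbol from 17687 genes tested on expression arrays. Each gene had 1 probe set. The cells were NCI-H2023, an established human lung adenocarcinoma line, and 6 samples fell into 3 groups of 2, lettered A and B. One group was reverse transfected with a synthetic miR-223-3p mimic, another with a miR-29a-3p mimic and the third with a control that the titles call a control mimic and the protocol a negative control siRNA. All 3 RNAs were given at 0.5 nM with a lipid reagent, followed by fresh medium at 24 h, per the labels' protocols. No harvest time is stated, and nothing says that A and B came from separate cultures. The p-values then reflect no more than sample-to-sample spread, perhaps of technical origin. The study used 1 line here, and a synthetic mimic adds microRNA from outside the cell, whose amount was not analysed here.

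The seeds of the mimics decide which transcripts they can pair with, so both mature sequences are shown 5′ to 3′ as RefSeq gives them on GRCh38.p14, with the seed (bases 2 to 8) in capitals. The mature miR-223-3p sequence lies on chromosome X at 66018937 to 66018958, plus strand, and that of miR-29a-3p on chromosome 7 at 130876748 to 130876769, minus strand.
hsa-miR-223-3p: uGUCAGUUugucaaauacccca
hsa-miR-29a-3p: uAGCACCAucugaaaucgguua
The seeds share 2 of 7 bases position by position, and a transcript would need AACUGAC to match the miR-223-3p seed and UGGUGCU to match that of miR-29a-3p. Among the annotated mature microRNAs 3 carry the miR-29a-3p seed, which are miR-29a-3p, miR-29b-3p and miR-29c-3p, and 1 carries the miR-223-3p seed. Transcript sequences were not used here, so which of the 8 genes hold such sites was not analysed.

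The signals, given throughout as log2 RMA values, had array medians of 6.21 to 6.23. Epithelial keratins lay above those medians, with means over the 6 arrays of 17.36 for KRT8, 16.50 for KRT18 and 16.40 for KRT7, as did EPCAM at 10.76. The lung lineage markers NKX2-1 and NAPSA lay below them, at 4.97 and 3.63. The mean level of the 8 epithelial and lung markers was 11.46 to 11.85 across arrays, that of 3 leukocyte markers 4.53 to 4.85, of 4 fibroblast markers 5.05 to 5.36 and of 4 endothelial markers 3.99 to 4.45. Among the fibroblast markers COL1A2 lay above the array medians, with a mean of 7.69 over the 6 arrays. No detection calls were used, so whether a low signal lay above background was not tested. Probe sets differ in brightness, so a gene's signal is read against the array medians and not as its abundance relative to another gene.

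None of the 8 genes passed limma's moderated test in any of the 3 comparisons, in the default fit with 1 prior variance for all genes (adjusted p under 0.05 over all genes). With miR-223-3p against control the test called 0% of all genes, with miR-29a-3p against control 0.0113%, and between the mimics 0.221%. In the trend fit, where the prior variance follows the signal level, 0 of 8 were called again, while the shares over all genes were 0.684%, 1.03% and 1.94%. At an unadjusted p under 0.05 the counts were 1 of 8 (PIK3R1) for miR-223-3p, 0 of 8 for miR-29a-3p and 1 of 8 (INSR) between the mimics, beside 7.59%, 8.86% and 10.3% of all genes. The groups of samples did not overlap for 3 of 8 genes with miR-223-3p, 1 of 8 with miR-29a-3p and 3 of 8 between the mimics, and over all genes for 36.9%, 37.8% and 38.7%. No count of the 8 stood clearly above its background.

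**Figure D1:**
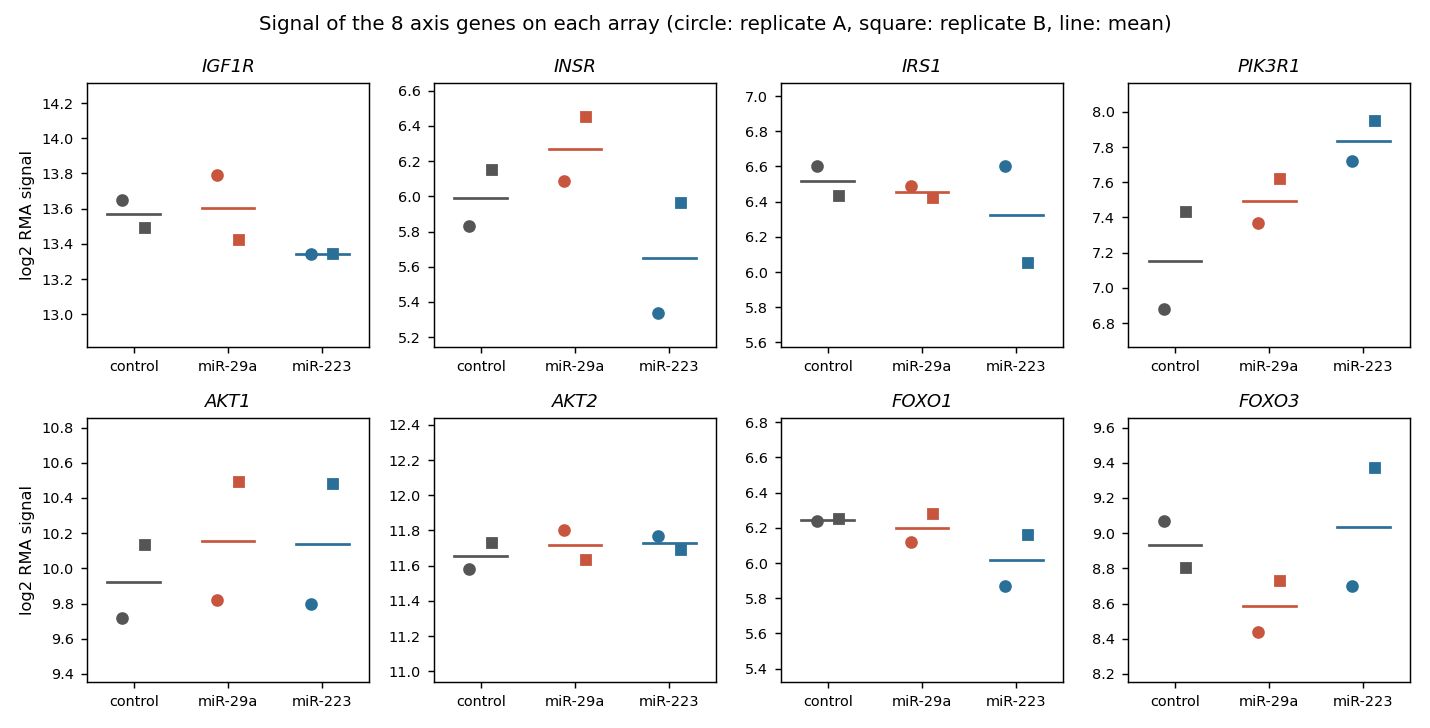
Log2 RMA signal (vertical axis, 1 panel per gene, each with its own range) of the 8 genes on the 6 arrays by group, with circles for replicate A, squares for replicate B and a line at the group mean. PIK3R1 lies higher in both miR-223-3p samples than in both control samples, IGF1R and FOXO1 lie lower, and AKT1 is split by replicate letter more than by group.

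IGF1R, the receptor for IGF1 and IGF2 (gene ID 3480, GRCh38 chromosome 15, 98648539 to 98964530), measured 13.65 and 13.49 in control samples A and B. With miR-29a-3p it measured 13.79 and 13.42, and with miR-223-3p 13.34 in both samples. Both miR-223-3p samples therefore lay below every other sample, by a small margin, while the miR-29a-3p samples lay on either side of the controls. The log2 difference of miR-223-3p from control was -0.23 with a standard error of 0.19, a 1.17-fold lower mean. Its 95% interval ran from 1.60-fold lower to 1.16-fold higher, and the adjusted p in limma was 0.855. Against control the miR-29a-3p difference was 0.04, with an interval of -0.41 to 0.48. Between the mimics the difference was 0.27 (interval -0.18 to 0.71), so the test did not separate them.

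INSR, the insulin receptor (gene ID 3643, chromosome 19, 7112265 to 7294414), measured 5.83 and 6.15 in control, 6.09 and 6.45 with miR-29a-3p and 5.34 and 5.96 with miR-223-3p. Each mimic overlapped the controls, but the miR-29a-3p samples both lay above the miR-223-3p samples. The group means, in rising order, were 5.65 ± 0.44 with miR-223-3p, 5.99 ± 0.23 in control and 6.27 ± 0.25 with miR-29a-3p (SD, n = 2 each). The 95% intervals of both neighbouring differences included 0, at -0.92 to 0.24 for miR-223-3p against control and -0.30 to 0.86 for miR-29a-3p against control. Between the ends of the order the log2 difference was 0.62 with a standard error of 0.25, a 1.54-fold higher mean with miR-29a-3p. Its unadjusted p in limma was 0.0385 and its adjusted p 0.451. The difference was 0.31 without sample A of miR-223-3p and 0.93 without its sample B. The 6 values lie on either side of the array medians.

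IRS1, the adaptor that both receptors phosphorylate (gene ID 3667, chromosome 2, 226731312 to 226799820), measured 6.60 and 6.43 in control and 6.49 and 6.42 with miR-29a-3p. With miR-223-3p it measured 6.60 and 6.05. Sample A of miR-223-3p equalled sample A of the control, and sample B was the lowest of the 6 arrays, so the group's spread (SD 0.39) exceeded its difference from control of -0.19. The miR-29a-3p difference was -0.06, with a 95% interval of -0.56 to 0.44.

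PIK3R1 (gene ID 5295, chromosome 5, 68215756 to 68301821) had the largest difference of the 8 genes from control. It measured 6.88 and 7.43 in control, 7.37 and 7.62 with miR-29a-3p, and 7.72 and 7.95 with miR-223-3p. Both miR-223-3p samples lay above all other samples, and the miR-29a-3p samples overlapped the controls. The miR-223-3p mean was 1.60-fold higher than control, a log2 difference of 0.68 with a standard error of 0.23 and a 95% interval of 0.16 to 1.20. Its unadjusted p in limma was 0.0169, and its adjusted p was 0.554 in the default fit and 0.374 in the trend fit. The difference was 0.41 without sample A of the control, which was the lowest array, and 0.96 without sample B of the control. For miR-29a-3p, of which PIK3R1 is a published target in other cells, the mean lay above control too, by 0.34 with a 95% interval of -0.18 to 0.86. The lower end of that interval, which is not adjusted for the number of genes, is a 1.14-fold lower level. Leaving out control A brought the difference to 0.07, leaving out control B to 0.62 and leaving out miR-29a-3p B to 0.22. Between the mimics the difference was -0.34 (interval -0.86 to 0.18).

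**Figure D2:**
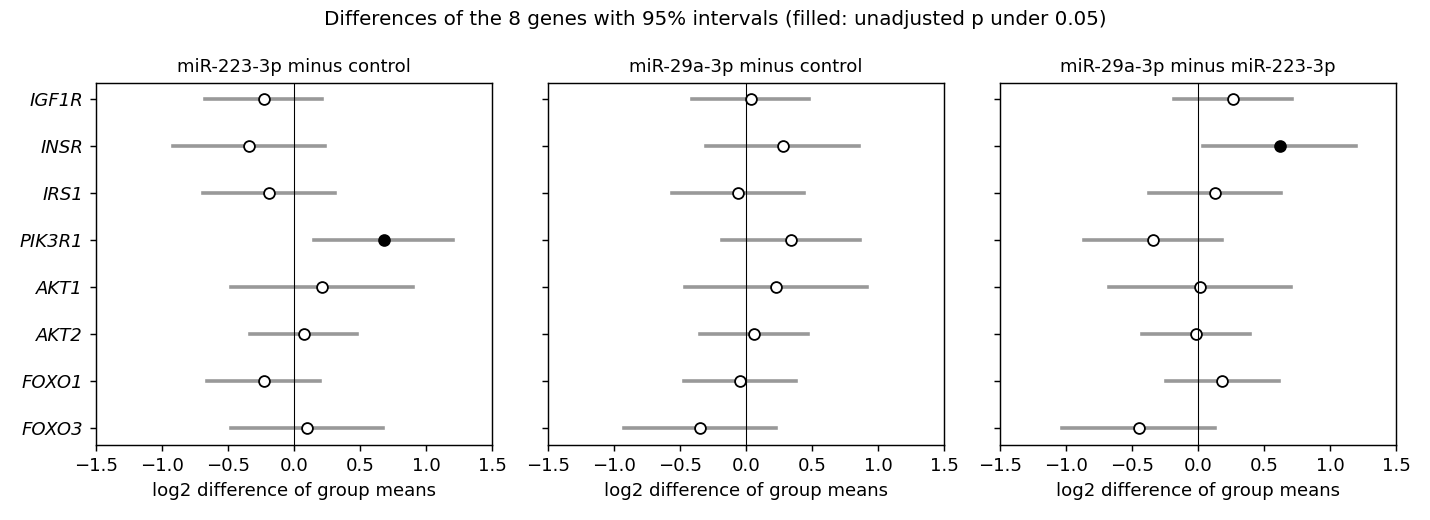
Log2 difference of group means (horizontal axis) of each gene in the 3 comparisons, with bars for the 95% intervals of the limma fit and filled points where the unadjusted p was under 0.05. Only the intervals of PIK3R1 for miR-223-3p against control (0.16 to 1.20) and of INSR between the mimics (0.04 to 1.20) leave out 0, before any adjustment.

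AKT1, a kinase of growth and survival (gene ID 207, chromosome 14, 104769349 to 104795748), measured 9.72 and 10.13 in control, 9.82 and 10.49 with miR-29a-3p and 9.80 and 10.48 with miR-223-3p. Sample B exceeded sample A in all 3 groups, by 0.41, 0.67 and 0.68, and every group overlapped the others. The differences from control were 0.22 with miR-223-3p and 0.23 with miR-29a-3p, each smaller than the gap between letters. AKT2, the isoform most tied to insulin-stimulated glucose uptake (gene ID 208, chromosome 19, 40230317 to 40285345), was the steadiest of the 8 genes. Its values were 11.58 and 11.73 in control, 11.80 and 11.63 with miR-29a-3p and 11.77 and 11.69 with miR-223-3p. All 6 arrays thus lay between 11.58 and 11.80. The 95% intervals of AKT2 against control ran from -0.33 to 0.48 for miR-223-3p and from -0.35 to 0.47 for miR-29a-3p. Their ends reach at most a 1.40-fold change, without adjustment for the number of genes.

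FOXO1, a factor that raises gluconeogenic and cell cycle arrest genes (gene ID 2308, chromosome 13, 40555667 to 40666641), measured 6.24 and 6.25 in control and 6.12 and 6.28 with miR-29a-3p. With miR-223-3p it measured 5.87 and 6.16, so both samples lay below both controls. The difference from control was -0.23 with a standard error of 0.19, an adjusted p in limma of 0.846 and a 95% interval from 1.58-fold lower to 1.15-fold higher. Without sample A of miR-223-3p it was -0.09, and without its sample B -0.38. For miR-29a-3p it was -0.05 (interval -0.47 to 0.38). Like INSR, FOXO1 lies at about the array medians.

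FOXO3, a related factor of stress resistance and apoptosis (gene ID 2309, chromosome 6, 108559825 to 108684774), followed another order. It measured 9.07 and 8.80 in control, 8.44 and 8.73 with miR-29a-3p and 8.70 and 9.37 with miR-223-3p. Both miR-29a-3p samples lay below both controls, whereas the miR-223-3p samples held the highest array and one below the controls. The miR-29a-3p difference was -0.35 with a standard error of 0.25, a 1.27-fold lower mean, and its 95% interval ran from -0.93 to 0.23 (adjusted p in limma 0.743). Leaving out 1 sample of these groups moved it to between -0.50 and -0.21, nearest to 0 without sample A of either group. Between the mimics FOXO3 differed by -0.45 (interval -1.03 to 0.13), by -0.79 without sample A of miR-223-3p and -0.12 without its sample B, and for miR-223-3p against control by 0.10.

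Signals of several of these genes differed between samples A and B, although over all genes samples of the same letter deviated together weakly at most. Deviations of same-letter samples from their group means had correlations of 0.068, 0.0039 and 0.13 over genes. Sample B differed from sample A in the same direction in all 3 groups for 5 of the 8 genes (INSR, IRS1, PIK3R1, AKT1 and FOXO1), as it did for 28.8% of all genes. Averaged over groups the shift was 0.59 for AKT1, 0.43 for INSR, 0.34 for PIK3R1 and -0.26 for IRS1, beside a median absolute shift of 0.14 over all genes. The shift of AKT1 was as large as or larger than that of 98.7% of genes. The labels call the letters experimental replicates and name no batch. Each group holds 1 sample of each letter, so a shift shared by all groups widens the spread within groups and leaves the differences of group means as they are.

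**Figure D3:**
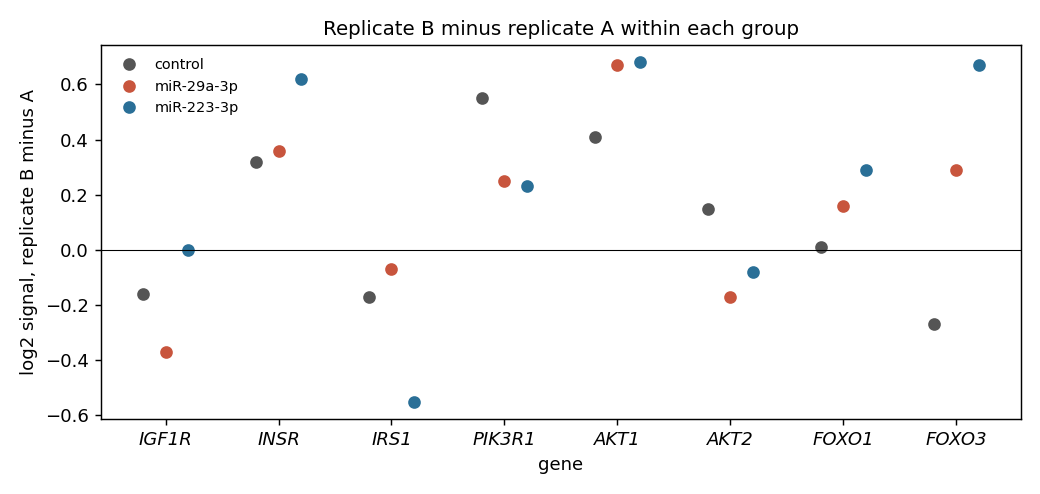
Log2 signal of replicate B minus replicate A (vertical axis) within each group for the 8 genes. AKT1 lies above 0 in every group, at 0.41, 0.67 and 0.68, and IRS1 lies below 0 in every group, while FOXO3 is below 0 in control (-0.27) and above it with both mimics.

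Other genes with values most like those of INSR and PIK3R1 over the 6 arrays were found by the root mean square difference after each gene was centred on its own mean. For INSR they were ZNF578 (0.080), CAMKK1, a kinase of calcium signalling (0.087), and RILPL1 (0.089), where the median over all genes was 0.40. For PIK3R1 they were the chloride channel protein CLIC3 (0.067), FAM228B (0.069) and SSBP4 (0.079), with a median of 0.39. CLIC3 measured 5.62 and 6.26 in control, 5.98 and 6.40 with miR-29a-3p and 6.45 and 6.69 with miR-223-3p. It shares with PIK3R1 both the order of the groups and a sample B above sample A in each, and with 6 arrays such nearness is a description only.

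Around the 8 genes, 84 further genes of the pathway were listed by role, of which 75 were measured. The lists were drawn up with earlier results of these data known, so their counts beside the background are a description only. With miR-223-3p against control 33 lay above and 42 below, with a median log2 difference of -0.07 beside 0 over all genes. In limma's default fit 0 of the 75 were called. At an unadjusted p under 0.05, 4 of 75 were higher (GRB2, DEPTOR, SGK3 and SESN1), beside 3.48% of all genes. At the same level 9 of 75 were lower, beside 4.11% of all genes. Those 9 were IGF2, IGFBP1, IGFBP4, IRS2, GRB10, PIK3CD, INPP4B, PHLPP1 and CCND1. With miR-29a-3p against control 35 lay above and 40 below, with a median of -0.03 beside 0 over all genes. There 0 were called. At an unadjusted p under 0.05, 2 of 75 were higher (RPTOR and SGK3), beside 4.19% of all genes. At the same level 7 of 75 were lower, beside 4.67% of all genes. Those 7 were IGFBP3, GAB1, PIK3CD, PTPN1, SGK1, CAT and CITED2. Between the mimics 1 was called higher with miR-29a-3p (CCND1) and 1 lower (SGK1), and the background was 0.136% of genes higher and 0.0848% lower. The median there was 0.02, against -0.005 over all genes. At an unadjusted p under 0.05, 6 were higher and 6 lower, beside 5.07% and 5.22% of all genes. Among the epithelial markers, EPCAM, a cell adhesion protein, had a mean of 10.33 in control and 11.47 with miR-223-3p, a log2 difference of 1.14 (limma adjusted p 0.199 in the default fit, 0.00201 in the trend fit). KRT19 lay above its control mean of 12.06 with each mimic. The miR-223-3p mean was 12.88 (adjusted p in limma 0.00586 in the trend fit, and 0.368 in the default fit). The miR-29a-3p mean was 12.57, a log2 difference of 0.515 (adjusted p in limma 0.0977 in the trend fit). For miR-223-3p against control the trend fit called 2 of 8 markers higher (EPCAM and KRT19) and 0 lower, beside 0.684% of all genes in either direction. There KRT8, KRT18 and KRT7 differed by 0.005, -0.025 and 0.085. CDH1, E-cadherin, had a mean of 10.81 in control and 9.97 with miR-29a-3p, with an adjusted p in limma of 0.416 and, in the trend fit, 0.0628. Between the mimics CDH1 was lower with miR-29a-3p by a log2 difference of -0.87. There its limma adjusted p was 0.325 in the default fit and 0.036 in the trend fit, which called it. EPCAM was lower with miR-29a-3p there too, by a log2 difference of -0.99. Its limma adjusted p was 0.119 in the default fit and 0.00204 in the trend fit. Between the mimics the trend fit thus called 2 of 8 markers lower and 0 higher, beside 1.94% of all genes in either direction. Their part in the results of either mimic was not tested.

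**Figure D4:**
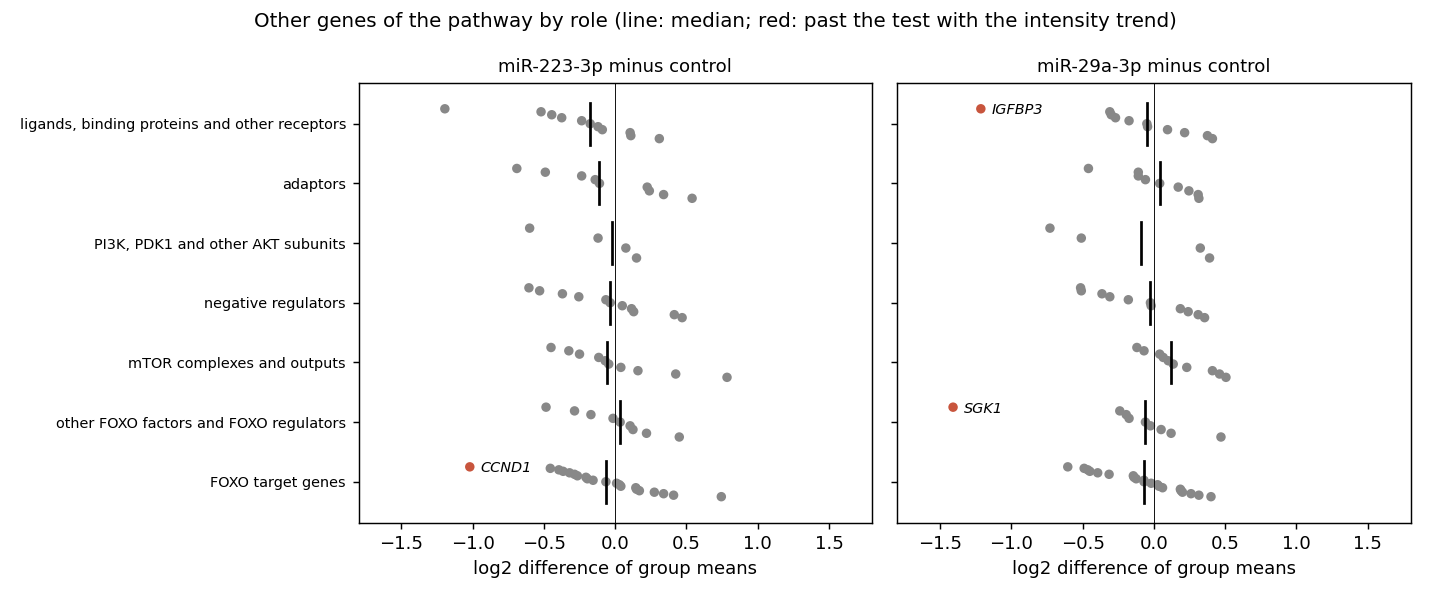
Log2 difference of group means (horizontal axis) from control for the 75 further pathway genes, 1 point a gene, in rows by role with a line at each row's median. Points called in the trend fit are red and named, which are CCND1 with miR-223-3p (-1.02) and IGFBP3 (-1.22) and SGK1 (-1.41) with miR-29a-3p, and the row medians lie between -0.18 and 0.12.

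Among ligands, binding proteins and other receptors 11 of 12 genes were measured, and none passed in the default fit. IGFBP3, the main carrier of IGFs in plasma (chromosome 7, 45912245 to 45921272), measured 13.79 and 13.90 in control, 12.80 and 12.46 with miR-29a-3p and 14.12 and 13.79 with miR-223-3p. Both miR-29a-3p samples lay far below the other 4 arrays, which overlapped each other. The mean was 2.32-fold lower than control, a log2 difference of -1.22 with a standard error of 0.21. Its limma adjusted p was 0.125 in the default fit and 9.51e-05 in the trend fit. Between the mimics it was -1.33, with adjusted p of 0.0609 and 1.81e-05 in the same order.

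IGFBP1, a binding protein whose gene is induced by FOXO factors in liver (chromosome 7, 45888488 to 45893660), measured 7.90 and 7.55 in control, 7.12 and 7.79 with miR-29a-3p and 6.16 and 6.90 with miR-223-3p. The miR-223-3p samples were the lowest arrays, though 0.74 apart. Their mean was 2.29-fold below control, with an adjusted p in limma of 0.416 and of 0.0844 in the trend fit, so IGFBP1 passed in neither. The ligand genes IGF1 and IGF2 averaged 5.94 and 3.26 over the 6 arrays, below the array medians, with log2 differences of 0.11 and -0.45 for miR-223-3p and 0.38 and -0.05 for miR-29a-3p, none past the test.

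Adaptors and PI3-kinase subunits gave no call in the default or the trend fit, for either mimic against control or between the mimics. Of 9 adaptors measured 1 was higher (GRB2) and 2 were lower (IRS2 and GRB10) with miR-223-3p at an unadjusted p under 0.05, where 3.48% of all genes were higher and 4.11% lower. With miR-29a-3p against control 1 was lower (GAB1) beside 4.67% of all genes, and between the mimics 2 were higher with miR-29a-3p (IRS2 and GRB10) beside 5.07%. IRS2, an adaptor parallel to IRS1 that was singled out after its values were seen, measured 8.04 and 8.11 in control, 8.20 and 8.29 with miR-29a-3p and 7.55 and 7.62 with miR-223-3p. Its groups did not overlap in any comparison, and its SDs were 0.049 to 0.064. The difference of miR-223-3p from control was -0.49 (adjusted p in limma 0.565) and that between the mimics 0.66 (adjusted p 0.226). PIK3CD, a catalytic subunit best known from leukocytes (chromosome 1, 9627258 to 9729114), measured 6.58 and 6.13 in control, 5.53 and 5.72 with miR-29a-3p and 6.01 and 5.50 with miR-223-3p. All 4 mimic samples lay below both controls, and the adjusted p in limma was 0.428 for miR-29a-3p and 0.622 for miR-223-3p. The 2 comparisons share the control samples.

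Negative regulators of the pathway gave 0 calls of 11 measured in the default fit. PTPN1, a phosphatase that removes phosphate from the insulin receptor (chromosome 20, 50510383 to 50585241), measured 12.67 and 12.61 in control, 12.22 and 12.03 with miR-29a-3p and 12.61 and 12.90 with miR-223-3p. Both miR-29a-3p samples were lower than the other 4 arrays. Between the mimics the log2 difference was -0.63 (standard error 0.19), with a limma adjusted p of 0.3 in the default fit and 0.0171 in the trend fit. Against control it was -0.52, with an adjusted p of 0.0874 in the trend fit. DEPTOR, an inhibitor within the mTOR complexes and listed with those, had the third smallest p of the 75 pathway genes for miR-223-3p. It lay below the array medians, at 3.23 and 3.50 in control, 3.87 and 3.68 with miR-29a-3p and 3.96 and 4.34 with miR-223-3p, and its difference of 0.79 had an adjusted p of 0.442 in limma.

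SGK1, a kinase related to AKT that also phosphorylates FOXO3 (gene ID 6446, chromosome 6, 134169256 to 134318112), was lower in the miR-29a-3p group than in the miR-223-3p group. It measured 11.79 and 11.77 in control, 10.53 and 10.21 with miR-29a-3p and 11.95 and 11.86 with miR-223-3p. Both miR-29a-3p samples lay more than 1 log2 unit below every other array. Between the mimics the fold was 2.90, a log2 difference of -1.54 with a standard error of 0.19, and limma's adjusted p was 0.0321. Against control it was 2.66-fold, or -1.41, with an adjusted p of 0.0918 in the default fit and 5.39e-05 in the trend fit. The call between the mimics was lost when any of the 6 samples was left out. Each such fit leaves 1 sample in a group, which adds nothing to the estimate of the spread. Without 1 control sample it is the same calculation as a fit of only the mimic groups. That fit left the log2 difference unchanged and gave an adjusted p in limma of 0.0735. Over all left-out samples the log2 difference stayed between -1.70 and -1.38. The other 8 genes of this list, among them FOXO4 and FOXO6, were not called.

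FOXO target genes, a textbook list of 23 genes that FOXO factors raise or repress, had 21 measured. With miR-223-3p 10 lay above and 11 below control, and with miR-29a-3p 9 and 12, with medians of -0.07 in both. Over all genes 8832 lay above and 8711 below control with miR-223-3p, and 8814 and 8753 with miR-29a-3p, with medians of 0. CCND1, cyclin D1, drives the G1 phase and is repressed by FOXO factors (gene ID 595, chromosome 11, 69641156 to 69654474). It was the 1 gene of the 21 called in the default fit, between the mimics. In that comparison 0.136% of all genes were called higher with miR-29a-3p. CCND1 measured 9.98 and 10.16 in control, 10.21 and 10.30 with miR-29a-3p and 9.05 in both samples with miR-223-3p. The miR-223-3p samples stood apart from the other 4 arrays. Between the mimics CCND1 was 2.31-fold higher in the miR-29a-3p group, a log2 difference of 1.21 with a standard error of 0.18, and limma's adjusted p was 0.0458. Against control the miR-223-3p difference was -1.02, with an adjusted p of 0.199 in the default fit and 0.0057 in the trend fit. This call too was lost without any 1 sample, and leaving out 1 control sample again equals a fit of only the mimic groups. That fit gave an adjusted p in limma of 0.0923, and array weights gave 0.0535. Over the left-out samples the log2 difference stayed between 1.16 and 1.25. The cyclin-dependent kinase inhibitor CDKN1B, a target that FOXO factors raise, measured 9.95 and 10.17 in control, 10.08 and 9.90 with miR-29a-3p and 10.11 and 10.03 with miR-223-3p, and those groups overlapped.

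**Figure D5:**
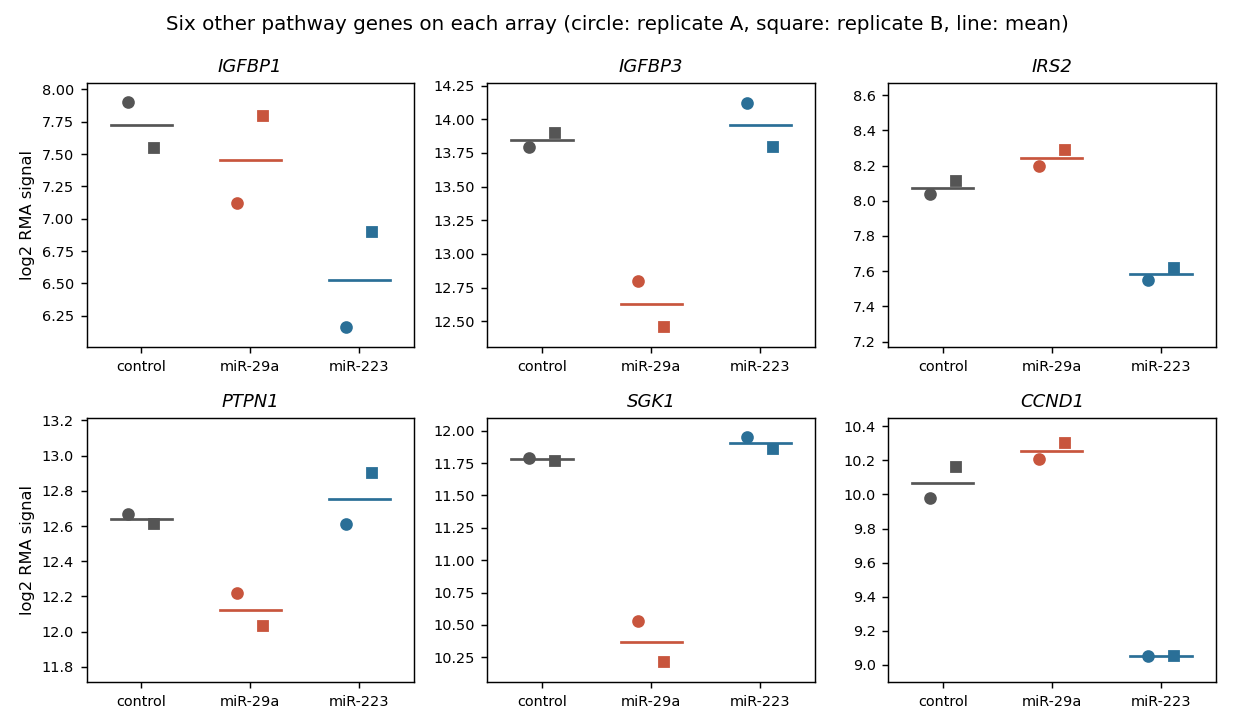
Log2 RMA signal (vertical axis, 1 panel per gene, each with its own range) of IGFBP1, IGFBP3, IRS2, PTPN1, SGK1 and CCND1 on the 6 arrays, with circles for replicate A, squares for replicate B and lines at group means. IGFBP3, SGK1 and PTPN1 are low in both miR-29a-3p samples, and IGFBP1, IRS2 and CCND1 in both miR-223-3p samples.

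FOXO factors bind the core motif GTAAACA, which was searched on both strands (as GTAAACA or TGTTTAC) in windows from 250 bases before to 50 after each gene's start in RefSeq on GRCh38.p14. Of the 21 FOXO targets measured, 16 had a window in the table. The motif occurred in 3.41% of 27305 windows, in 2.58% of the 14250 windows of genes tested here, in 0 of the 8 windows of the axis genes and in 2 of 16 windows of FOXO target genes. The stretches are shown because they are the matches found among the windows of the members and the FOXO targets, with the motif in capitals, 5′ to 3′ on the gene's strand.
TXNIP: tcgggctcctgGTAAACAaggaccgggca
BCL2L11: gagttactccgGTAAACAcgccagggacg
The TXNIP stretch lies at chr1:145996686-145996714 on the minus strand and that of BCL2L11 at chr2:111120680-111120708 on the plus strand. TXNIP, an inhibitor of thioredoxin, differed from control by 0.15 with miR-223-3p and 0.26 with miR-29a-3p, and BCL2L11, the proapoptotic protein BIM, by 0.41 and 0.06, none past the test. A match is a description of letters in these windows and not a bound site.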

How the data were processed

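Total RNA of 6 samples was put, after biotin labelling, on 1 expression array per sample. The deposited log2 values were made by the authors with RMA, which corrects background, makes the arrays' distributions alike and summarises probes, per the submitters' processing notes; the notes name hg38 and no RMA version. A change in total RNA cannot be seen in such values. Of 21448 probe sets, 17709 name 1 gene, all matched to RefSeq, and 3739 are unnamed here. The brightest probe set of a gene was kept, which gave 17687 genes. Samples were grouped by title. One limma 3.58.1 fit (R 4.3.3, lmFit and eBayes, constant prior, 3 residual degrees of freedom) held all 6 samples and the 3 contrasts, with Benjamini-Hochberg adjustment over all genes at 0.05; 95% intervals and standard errors are those of the fit. The procedure was tested on simulated data. The planted changes there were larger than any difference of the 8 genes, so whether differences of their size can be called was not tested. Alternatives were the intensity trend, a robust prior, leaving out genes with a mean under 5, normalization again by quantiles or medians, only the groups compared, array weights, other handling of probe sets, the replicate block and leaving out each sample. The members and lists were chosen with earlier results of these data known. Named genes are the 8 members, list genes called in either prior, the 3 list genes with the smallest p for each mimic against control, and the 3 nearest genes of each member with an unadjusted p under 0.05. Other list genes are given as values, chosen after they were seen. The number of arrays limits the precision.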

Additional observations from a re-analysis of the deposited data

How the results depend on the processing

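The count of 0 of 8 axis genes past the threshold held in each of the 3 comparisons under all 16 alternatives. All 8 genes passed the filter at a mean signal of 5, and DEPTOR did not. Leaving out a sample of the groups compared and the 2 renormalizations can move a difference. In these 144 reruns of the 24 differences 127 kept their sign, 1 was exactly 0 (AKT2 for miR-223-3p without control A) and 16 turned, all with a sample left out; the other 240 reruns left the difference as it was. For miR-223-3p against control the ranges over left-out samples of those that turned were -0.465 to 0.085 for IRS1, -0.125 to 0.555 for AKT1, and -0.235 to 0.435 for FOXO3, and among other pathway genes -0.055 to 0.275 for IGFBP3 and -0.03 to 0.26 for PTPN1. For miR-29a-3p against control they were -0.15 to 0.22 for IGF1R, -0.145 to 0.025 for IRS1, -0.105 to 0.565 for AKT1, -0.025 to 0.145 for AKT2, -0.125 to 0.035 for FOXO1 and -0.605 to 0.065 for IGFBP1. Between the mimics they were -0.145 to 0.405 for IRS1, -0.325 to 0.355 for AKT1, -0.1 to 0.07 for AKT2 and -0.385 to 0.125 for PIK3CD.

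Counts over all genes depended on the prior and the filter. In the order miR-223-3p against control, miR-29a-3p against control and between the mimics, limma called 0, 2 and 39 genes, 121, 182 and 344 with the intensity trend and 3, 17 and 107 without dim genes. Pathway list genes called were 0, 0 and 2, and with the trend 1, 2 and 4, while without dim genes 1 was called for miR-29a-3p against control. Between the mimics only the groups compared gave 1 gene and 0 list genes, and array weights 1 list gene. Over left-out samples the counts were 0 to 2 genes for miR-29a-3p against control, and 0 to 1 genes and 0 list genes between the mimics; a group left with 1 sample was assumed to vary like the others. The cause was not tested.

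Over all genes the deviations of same-letter samples from their group means went together weakly at most, with correlations of 0.068, 0.0039 and 0.13. With the replicate block, limma called 0 genes in each comparison and so 0 list genes and 0 axis genes; the block took the unadjusted p of PIK3R1 for miR-223-3p to 0.00702 and of INSR between the mimics to 0.0102, and the adjusted p between the mimics to 0.0659 for SGK1 and 0.0937 for CCND1.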
